A study of Mus musculus with 32 samples.

Results

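Collagens are the main structural proteins of the extracellular matrix. Their polypeptide chains wind into a triple helix, and the helical part of every chain repeats glycine at a fixed short interval, so that the coding strand of a collagen gene carries a glycine codon, which begins with GG, again and again. Fibrillar collagens (such as types I, II, III, V and XI) form the cable-like fibres of connective tissue, type IV chains form the sheet of the basement membrane, and the remaining types form beaded filaments, anchoring fibrils or short networks, or sit on fibril surfaces or in cell membranes. Cisplatin is a platinum drug that crosslinks adjacent guanines, and these crosslinks are removed by nucleotide excision repair. Repair on the transcribed strand (TS), which is the template of the RNA polymerase, is helped by a polymerase that stalls at the lesion, whereas the nontranscribed strand (NTS) is left to global repair.

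The collagen genes described here are the protein-coding genes whose GENCODE M21 symbol is Col, a number, a and a number, and 44 of the 25058 genes counted in all assays met that rule. The rule uses the gene name and no measured value. By the protein class they fall into 11 fibrillar genes, 6 type IV genes, 6 beaded filament genes (type VI), 9 fibril-associated genes, 4 transmembrane genes, 3 short-chain network genes, 2 multiplexins (Col15a1 and Col18a1), the anchoring fibril gene Col7a1, and 2 genes of other kinds (Col26a1 and Col28a1).

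Kidney, liver, lung and spleen were taken from wild-type female C57BL/6J mice of 6 or 7 months, killed at zeitgeber time (ZT) 5 after an intraperitoneal injection at ZT1 of either cisplatin at 10 mg per kg or the same volume of saline, a gap of 4 h that the sample characteristics give as 2 h. RNA-seq was made from 2 control and 2 cisplatin samples of each organ, and Damage-seq, which counts remaining adducts, and XR-seq, which counts the excised oligomers of ongoing repair, from 2 cisplatin samples of each organ (untreated samples of these assays were not analysed here). The lung and spleen RNA-seq samples carry a remark by the depositors of an exchange of control and cisplatin labels that was later corrected, and the corrected labels were used. Whole organs were sequenced, so that fewer cells of a type and less RNA per cell cannot be told apart, and p-values measure the spread between these samples. Libraries held 15619474 to 162270280 RNA-seq reads on genes, 10658675 to 59779770 XR-seq reads and 1571167 to 6441367 Damage-seq reads. The 2 control libraries of lung differed by a dispersion index of 2.75 and those of spleen by 2.98 (1 is sampling noise, and the other RNA-seq pairs lay between 39.3 and 349), so each pair was summed and counted as 1 sample in the tests. Markers of each organ (5 of 5 at 1 RPKM or more) were highest in the organ named by the label. Kidney markers summed to 3150 to 3630 RPKM in kidney controls and to at most 9.04 RPKM in controls of the other organs. The sums in their own organ were 33700 to 62100 RPKM for liver, 112000 to 113000 RPKM for lung and 812 to 814 RPKM for spleen markers. In controls of other organs liver markers reached 217 RPKM (kidney), lung markers 30.6 RPKM (kidney) and spleen markers 90.2 RPKM (lung).

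The sequence of the collagen genes differed from that of other genes in its GG dinucleotides, the sites that cisplatin mainly binds. Coding sequence held a median of 120.0 GG dinucleotides per kb on the coding strand (the NTS) in the 44 collagen genes against 68.2 in 18639 protein-coding genes, and 109.0 against 73.4 on the template strand (the TS). More GG on the coding than on the template strand of the coding sequence was found in 35 of 44 collagen genes (79.5%) and in 38.8% of all protein-coding genes. Introns diluted the contrast, and over the whole gene the medians were 68.3 against 61.0 GG per kb on the NTS and 62.6 against 59.1 on the TS. Collagen genes were also long, with a median of 114387.5 bp against 20607 bp, and 26 of 44 spanned 100 kb or more. They were split into many small exons, with a median of 47 coding exons against 7. Of 2004 collagen coding exons 23.4% were exactly 54 bp long and 61.8% had a length divisible by 9, compared with 0.667% and 14.3% of 187629 coding exons of all protein-coding genes. Some exons of 54 bp, picked as examples, are shown 5′ to 3′ on the coding strand, with each GG in capitals. They show the regular spacing of GG at the glycine codons. Not every exon of 54 bp has it, and the first such exons of Col1a2 (3 GG), Col16a1 (7 GG) and Col18a1 (4 GG) lack it. Coordinates are on GRCm38 (mm10), and each is an internal coding exon.
Col1a1, coding exon 8, chr11:94939904-94939957, plus strand: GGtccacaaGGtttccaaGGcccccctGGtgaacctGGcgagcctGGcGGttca
Col3a1, coding exon 6, chr1:45325360-45325413, plus strand: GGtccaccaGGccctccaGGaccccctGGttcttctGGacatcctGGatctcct
Col5a2, coding exon 6, chr1:45434892-45434945, minus strand: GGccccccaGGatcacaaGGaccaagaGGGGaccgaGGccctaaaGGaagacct
Col4a1, coding exon 7, chr8:11245211-11245264, minus strand: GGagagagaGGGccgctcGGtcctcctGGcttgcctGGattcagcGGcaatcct
Col4a3, coding exon 7, chr1:82651254-82651307, plus strand: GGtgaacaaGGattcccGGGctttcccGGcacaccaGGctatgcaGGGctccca
Col4a4, coding exon 13, chr1:82528752-82528805, minus strand: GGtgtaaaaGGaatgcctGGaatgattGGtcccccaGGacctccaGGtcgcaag
These exons held 6 to 8 GG on the coding strand and, as CC in the printed strand, 5 to 11 GG on the template strand. The template strand held more GG than the coding strand in those of Col1a1, Col3a1, Col5a2 and Col4a4. Levels of damage and repair were therefore given per GG of the strand, as reads per 1000000 reads on genes and per 1000 GG dinucleotides (CPM per 1000 GG). Each library is scaled to its own total, so organs are compared in relative levels and not in total adducts or total repair.

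Organs differed in how much collagen RNA they held and in which chains it encoded. RNA levels are given as RPKM, reads per kb of merged exons per 1000000 reads on genes. At least 1 RPKM in the controls was reached by 23 of 44 collagen genes in lung (52.3%), 19 in spleen (43.2%), 18 in kidney (40.9%) and 10 in liver (22.7%), below the shares of all protein-coding genes, which were 65.3%, 60.2%, 59.7% and 50.4%. The 44 genes together summed to 372.9 and 367.0 RPKM in the 2 lung controls, 188.0 and 206.8 in liver, 164.7 and 198.0 in kidney, and 104.6 and 102.7 in spleen. In liver most of the sum was 1 gene, Col18a1, whose product is the precursor of endostatin. Expression differed between organs for 31 of 43 collagen genes tested (edgeR quasi-likelihood F test over the controls, adjusted p under 0.05), against 63.9% of all genes.

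**Figure D1:**
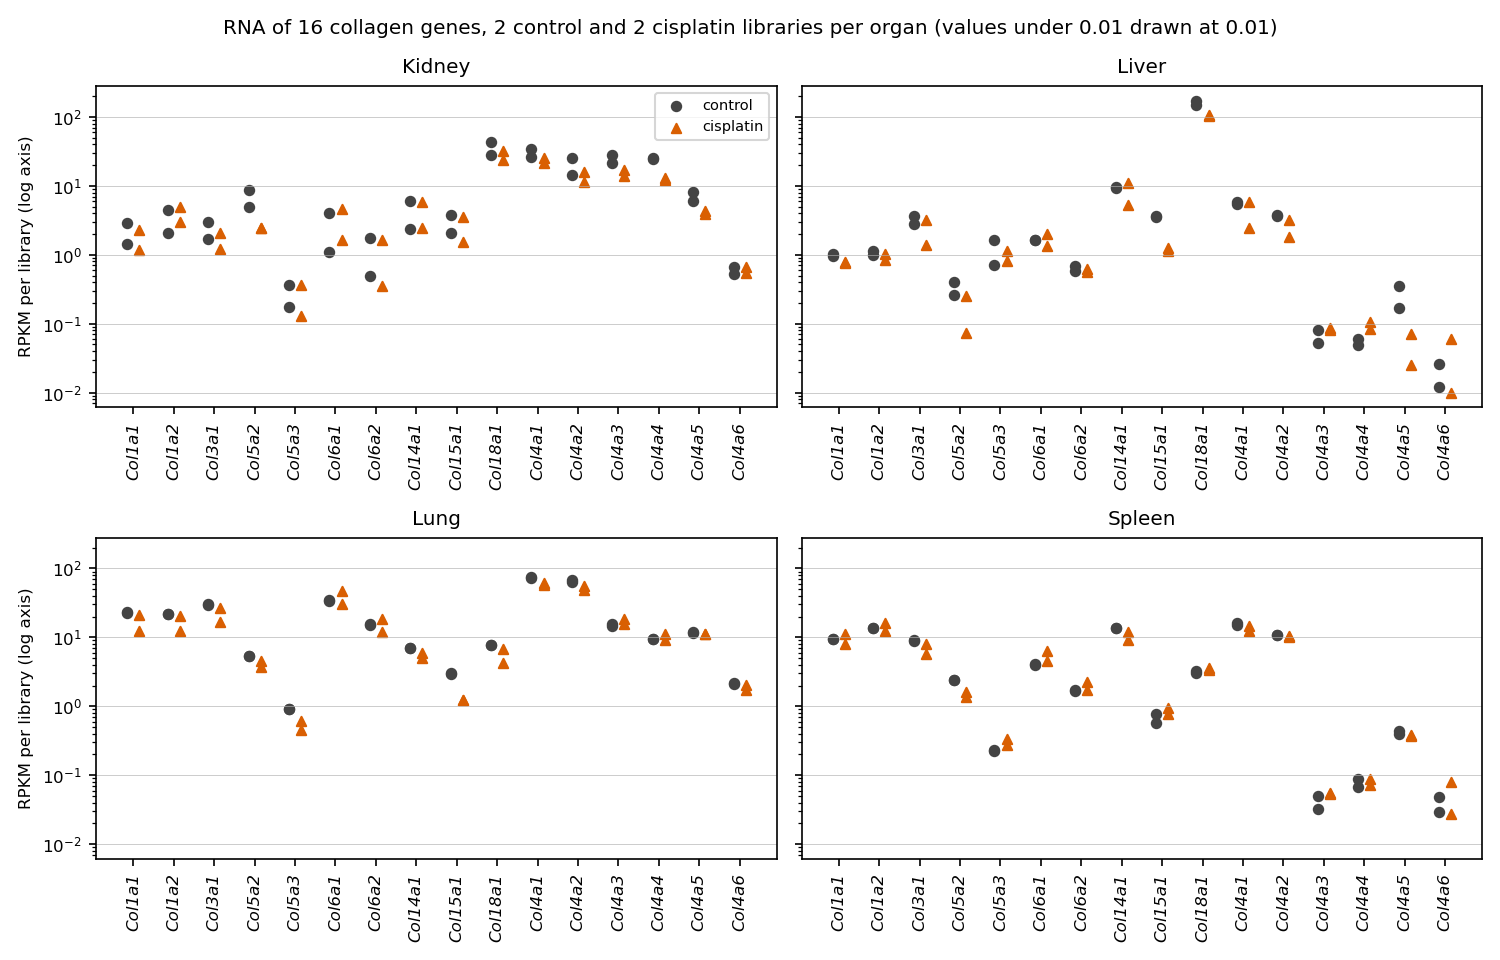
RPKM (log axis) of 16 collagen genes in each control library (circles) and cisplatin library (triangles), in a panel for each organ. Col4a1 and Col4a2 lead in lung, Col18a1 leads in liver, and Col4a3 and Col4a4 are high in kidney and lung and at most 0.11 RPKM in liver and spleen libraries.

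Basement membrane chains led in lung and kidney. Col4a1 and Col4a2, which encode the chains present in nearly all basement membranes, stood at 75.17 and 73.3 RPKM and at 67.34 and 63.96 RPKM in the lung controls. In kidney controls Col4a1 stood at 26.2 and 34.55 RPKM and Col4a2 at 14.26 and 25.11 RPKM. Both were lower in the other organs, with spleen at 15.96 and 15.35 RPKM and liver at 5.765 and 5.456 RPKM for Col4a1. Col4a3, Col4a4 and Col4a5 encode the chains of the specialised membrane of the glomerular filter and the alveolar wall, and mutations of these genes cause Alport syndrome. Col4a3 read 27.55 and 21.46 RPKM in kidney controls and 14.69 and 15.4 in lung, against at most 0.0809 RPKM in liver and spleen controls. Col4a4 read 25.55 and 24.28 RPKM in kidney and 9.501 and 9.619 in lung, against at most 0.0876 RPKM in liver and spleen. The kidney and lung values of these 2 genes did not overlap, and both were higher in kidney than in each of the other organs, with a kidney minus lung difference of 1.02 on the log2 scale for Col4a3 (SE 0.31, adjusted p = 0.0368, edgeR) and 1.72 for Col4a4 (SE 0.30, adjusted p = 0.00328). Col4a2 went the other way, with −1.36 (SE 0.40, adjusted p = 0.0326), and the difference for Col4a1 did not pass the test (−0.93, SE 0.33, adjusted p = 0.065). Col4a5 read 8.052 and 6.006 RPKM in kidney, 11.85 and 11.61 in lung and at most 0.442 in the remaining organs. Col4a6, the last of the type IV genes, was low in every organ and highest in lung at 2.086 and 2.142 RPKM.

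Mean control RNA of Col1a1, Col1a2 and Col3a1 was highest in lung and next in spleen. Col1a1 and Col1a2 encode the chains of type I collagen, the fibre of scar and bone, and Col3a1 that of type III collagen. Col1a1 controls read 23.44 and 22.51 RPKM in lung, 9.484 and 9.401 in spleen, 1.42 and 2.896 in kidney and 1.042 and 0.9546 in liver. Col1a2 followed the same order at 21.8 and 21.72, 13.86 and 13.63, 2.095 and 4.424, and 1.128 and 0.9984 RPKM. The lung minus spleen difference of Col1a1 did not pass the test (log2 1.19, SE 0.51, adjusted p = 0.127, edgeR), and Col1a2 was not called highest in any organ. Col3a1, at 29.92 and 30.18 RPKM in lung and 9.19 and 8.972 in spleen, was higher in lung than in each other organ. The lung was also the highest organ for Col4a2, Col6a1, Col6a2, Col12a1, Col13a1 and Col23a1, which makes 7 collagen genes highest in lung (5.56% of all genes tested). Kidney was highest for Col4a3 and Col4a4 (6.33% of genes) and liver for Col18a1 (7.46%), and 0 collagen genes were highest in spleen (6.66%). Col18a1 read 149.4 and 172.3 RPKM in liver and 28.19 and 43.78 in kidney, a kidney minus liver difference of −2.95 (SE 0.40, adjusted p = 0.000801). Col14a1, a fibril-associated collagen, was among the 3 leading collagens of liver (9.692 and 9.371 RPKM) and of spleen (13.66 and 13.77 RPKM).

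After cisplatin no collagen gene passed the test for a change beyond 0.4 on the log2 scale in any organ. The test was edgeR's quasi-likelihood test with Benjamini-Hochberg adjustment over all genes, and it covered 32 collagen genes in the kidney, 26 in the liver, 43 in the lung and 40 in the spleen. Over all genes it called 5.05% in the kidney, 0% in the liver, 2.09% in the lung and 0.181% in the spleen. The unadjusted p against a log2 change of 0 lay under 0.05 for 6 collagen genes in the kidney, 4 in the liver, 10 in the lung and 3 in the spleen, and for 4392, 1622, 3638 and 1555 of all genes. DESeq2 called 1 collagen gene, Col5a2 in kidney, and 0 in each other organ. With the replicate number as a block, a pairing that the labels do not state, edgeR called 0 in spleen, 4 in lung (1914 of all genes), 2 in liver (1015) and 6 in kidney (3182). The difference in response between organs was called for 0 of 43 collagen genes (interaction term, 0.209% of genes), with the smallest edgeR p for Col4a5 (adjusted p = 0.196) and Col4a4 (adjusted p = 0.261).

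The point estimates lay mostly below 0. The median log2 change of the collagen genes was −0.19 in the kidney, −0.31 in the liver, −0.16 in the lung and −0.15 in the spleen, against −0.003, 0.03, 0.03 and 0.02 over all genes tested. Values below 0 were found for 20 of 32, 19 of 26, 26 of 43 and 24 of 40 collagen genes, and for 50.2%, 47.7%, 47.5% and 48.3% of all genes. The summed RPKM of the 44 genes went from 164.7 and 198.0 in controls to 116.1 and 140.5 with cisplatin in the kidney, from 188.0 and 206.8 to 143.7 and 122.4 in the liver, from 372.9 and 367.0 to 354.2 and 287.0 in the lung, and from 104.6 and 102.7 to 101.5 and 88.24 in the spleen. Control and cisplatin sums did not overlap in any organ, a comparison made after the values were seen and without a test. In lung and spleen the controls lie close together and count as 1 sample, so the lack of overlap carries little weight there. How often other sets of genes fail to overlap was not computed. Gene length moved with these values. Among genes of 100 to 300 kb the medians were −0.50 for 18 collagen genes against −0.69 for all genes of that length in the kidney, −0.61 for 16 against −0.86 in the liver, −0.38 for 23 against −0.49 in the lung and −0.21 for 21 against −0.28 in the spleen, so that the collagen medians lay nearer 0 than those of all genes of like length. The part of length in the collagen values was not tested further.

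**Figure D2:**
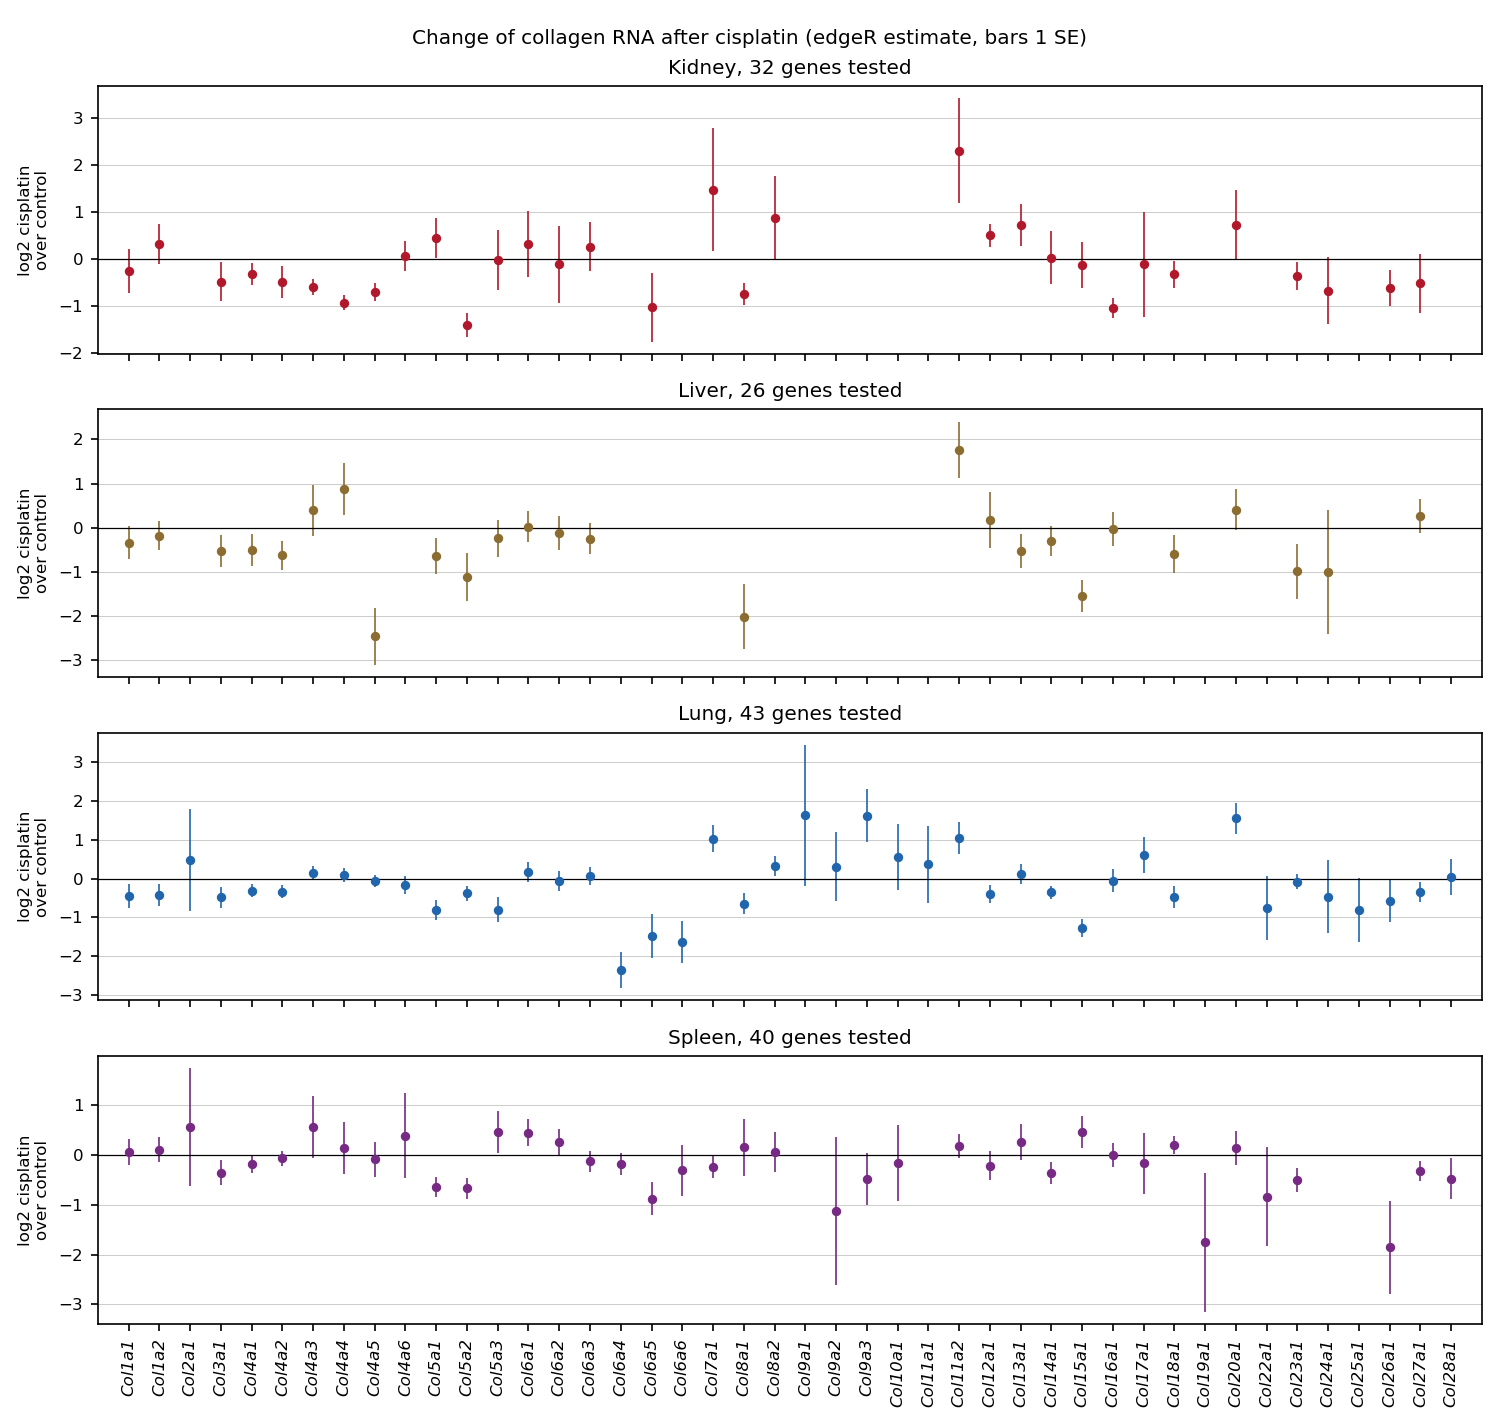
Log2 change of collagen gene RNA after cisplatin against control, in a panel for each organ, with the edgeR estimate as a point and a bar of 1 SE for each gene tested. No gene passed the test, and the medians were −0.19 in the kidney, −0.31 in the liver, −0.16 in the lung and −0.15 in the spleen.

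The 2 values nearest the threshold, Col5a2 and Col4a4, were in kidney. Col5a2, a chain of the type V collagen that nucleates type I fibrils, read 8.592 and 4.872 RPKM in controls and 2.423 and 2.407 with cisplatin. Both treated samples lay below both controls, and the log2 change was −1.40 (SE 0.26, adjusted p = 0.0524, edgeR). Col4a4 read 25.55 and 24.28 RPKM in controls and 13.07 and 12.17 with cisplatin (log2 −0.92, SE 0.15, adjusted p = 0.0572), and Col16a1, a fibril-associated collagen, read 4.31 and 3.663 against 2.087 and 1.653 RPKM (log2 −1.04, SE 0.21, adjusted p = 0.0749). Groups did not overlap for either gene, nor for the partners of Col4a4 in the glomerular network. How many of all genes fail to overlap was not computed, so with 2 samples a group the lack of overlap carries little weight. Col4a3 read 27.55 and 21.46 against 17.07 and 14.11 RPKM (log2 −0.59, SE 0.18, adjusted p = 0.314) and Col4a5 8.052 and 6.006 against 3.964 and 4.266 RPKM (log2 −0.70, SE 0.19, adjusted p = 0.218). The 6 type IV genes together summed to 102.1 and 112.1 RPKM in kidney controls and 67.28 and 72.48 with cisplatin. Podocyte markers, which mark the cells that make the glomerular chains, summed to 97.7 to 147 RPKM in kidney controls and 128 to 161 with cisplatin. Their part in these values was not tested. Much of the sum was 1 marker, Podxl, at 46.3 and 78.9 RPKM in kidney controls, which also read 107 and 103 RPKM in lung controls. Without control replicate 1 the kidney count of collagen calls was 5 (Col5a2, Col4a2 and Col4a4 lower, Col7a1 and Col11a2 higher), and without control replicate 2 it was 4 (Col5a2, Col4a4, Col16a1 and Col27a1, all lower). The calls over all genes were 2005 and 1400 in these settings and 782 with all libraries.

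In lung and liver the lowest values included Col15a1, a multiplexin of basement membrane zones. It read 2.932 and 2.99 RPKM in lung controls against 1.233 and 1.249 with cisplatin (log2 −1.26, SE 0.24, adjusted p = 0.0829, edgeR), and 3.6 and 3.509 in liver against 1.138 and 1.237 (log2 −1.54, SE 0.36, adjusted p = 0.220). The treated samples lay below the controls in both organs, and the share of all genes for which this holds was not computed. Without cisplatin replicate 1 the liver count of collagen calls was 3 (Col15a1, Col4a5 and Col5a2) and without cisplatin replicate 2 it was 1 (Col15a1), where calls over all genes were 1840 and 352. Endothelial markers in liver summed to 28.5 to 34.5 RPKM in controls and 12.9 to 37.8 with cisplatin, with 0 of 5 called and a median log2 value of −0.63, and their part in the collagen values was not tested. Col6a4, a beaded filament chain, read 0.2926 and 0.1828 RPKM in lung controls and 0.04546 and 0.03759 with cisplatin (log2 −2.36, SE 0.46, adjusted p = 0.0732). Its relatives in the type VI family, Col6a5 and Col6a6, had log2 values of −1.48 (SE 0.57) and −1.64 (SE 0.54) in lung, at control levels under 0.2 RPKM. Col20a1 had the opposite sign, at 0.1687 and 0.2298 RPKM in lung controls and 0.5577 and 0.7047 with cisplatin (log2 1.56, SE 0.40, adjusted p = 0.157). In lung the lymphoid markers also fell (5 of 5, for example Cd3e by 2.01 on the log2 scale), their summed level going from 95.6 to 96.4 RPKM in controls to 21.9 to 28.9 with cisplatin. The spleen markers summed to 88.5 to 90.2 RPKM in lung controls and 18.9 to 26.5 with cisplatin, and the adipocyte markers to 421 to 426 and 44.1 to 108 RPKM (1 of 4 called lower, Adipoq, log2 −2.87, adjusted p = 0.0403). Their part in the collagen values of lung was not tested.

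Type I and type III collagen gave no change that could be told from the spread. Col1a1 in lung read 23.44 and 22.51 RPKM in controls and 21.41 and 12.18 with cisplatin, where the 2 treated samples differed more from each other than the first did from the controls (log2 −0.45, SE 0.31, adjusted p = 0.861, edgeR). Col1a2 behaved alike at 21.8 and 21.72 against 20.47 and 12.31 RPKM, as did Col3a1 at 29.92 and 30.18 against 26.84 and 16.68 RPKM. In spleen Col1a1 read 9.484 and 9.401 RPKM in controls and 11.21 and 7.996 with cisplatin, with overlapping groups. The lowest unadjusted values in spleen were those of the type V chains Col5a1 (log2 −0.65, SE 0.20) and Col5a2 (log2 −0.67, SE 0.21), each with an adjusted p of 1.00. Liver markers in the spleen ran from 6.12 to 16.5 RPKM in controls and from 1.39 to 187 RPKM with cisplatin, and adipocyte markers from 5.74 to 5.8 and from 6.45 to 84.1 RPKM, and their part was not tested. Fibroblast markers, for the cells that make most fibrillar collagen, summed to 8.4 to 17.6 RPKM in kidney controls and 12.5 to 20.4 with cisplatin, 33.5 to 42.4 and 36.3 to 48.9 in liver, 176 to 178 and 157 to 200 in lung, and 34.1 to 34.4 and 53.8 to 59.5 in spleen, with 0 of 6 called in any organ.

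Genes that act on collagen gave 1 call. Of the collagen processing genes, which hydroxylate, fold, cleave and crosslink the chains, 1 of 31 tested in kidney was called, Colgalt2, a galactosyltransferase for hydroxylysine, which fell by 1.27 on the log2 scale (SE 0.22, adjusted p = 0.0452, edgeR), and 0 of 29 in liver, 0 of 32 in lung and 0 of 32 in spleen, beside 5.05%, 0%, 2.09% and 0.181% of all genes. The counts were 0 in every organ for the breakdown genes, which are the collagen-cleaving proteases and their inhibitors (10 to 12 tested), the collagen receptors (7 to 9 tested) and 24 other matrix genes. Median log2 changes for processing, breakdown, receptor and other matrix genes were 0.04, 0.42, 0.43 and −0.09 in the kidney, −0.01, −0.24, −0.09 and −0.48 in the liver, 0.07, 0.10, −0.001 and −0.07 in the lung, and 0.002, 0.28, −0.30 and −0.06 in the spleen. The collagen median was below 0 in all 4 organs, which held for 1 of these 4 lists, the other matrix genes.

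XR-seq reads on the TS differed between organs for 35 of 44 collagen genes (edgeR F test, 58.3% of all genes), and on the NTS for 11 of 44 (26.3%). The NTS count was 18 without XR-seq kidney replicate 1 and 20 without replicate 2, where the counts over all genes were 7038 and 9203 against 5104. Lung was the highest organ on the TS for 10 collagen genes (2.9% of all genes), namely Col1a1, Col1a2, Col4a1, Col4a2, Col5a1, Col5a2, Col6a1, Col6a2, Col13a1 and Col17a1. Kidney was highest for Col4a3, Col4a4, Col7a1 and Col18a1 (3.15%), liver for Col5a3, Col15a1 and Col20a1 (13%), and spleen for Col14a1 and Col26a1 (3.7%). Liver was the lowest organ for 6 genes, Col4a2, Col5a1, Col5a2, Col7a1, Col8a2 and Col16a1 (10.7%). Col4a3 and Col4a4 in kidney and Col4a2, Col6a1, Col6a2 and Col13a1 in lung were highest in the same organ for both RNA and TS repair. On the NTS the highest organ was liver for Col4a3, Col5a3 and Col15a1 (2.88%), spleen for Col4a4 (1.21%) and lung for Col5a2 (1.12%). Across the 44 genes, RNA level in the cisplatin samples and XR-seq TS level had Spearman correlations of 0.69 in the kidney, 0.748 in the liver, 0.68 in the lung and 0.761 in the spleen, compared with 0.794, 0.719, 0.76 and 0.79 across 18634 protein-coding genes, and genes of a sample share library and depth.

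TS repair of Col4a3 and Col4a4 was highest in kidney. Col4a3 TS repair was 18.04 and 15.15 CPM per 1000 GG in kidney, 2.049 and 1.94 in lung, 1.341 and 1.731 in liver and 0.7342 and 0.4805 in spleen. Col4a4 gave 17.31 and 12.93 in kidney, 1.448 and 1.49 in lung, 0.8464 and 0.9374 in liver and 0.5219 and 0.2763 in spleen. Both kidney libraries lay above every library of the other organs for each gene, and the kidney minus lung differences on the log2 scale were 2.98 for Col4a3 (SE 0.23, adjusted p = 1.05e-06, edgeR) and 3.29 for Col4a4 (SE 0.26, adjusted p = 1.42e-06). The same differences in control RNA were 1.02 and 1.72, and the RNA and repair differences were not compared by a test. Col4a1 and Col4a2, which lie head to head and share a promoter region, were repaired most in lung. Col4a1 TS levels were 51.5 and 51.15 in lung, 41.99 and 35.55 in kidney, 11.95 and 12.45 in spleen and 9.184 and 6.68 in liver, and the kidney minus lung difference was −0.48 (SE 0.15, adjusted p = 0.0306). Col4a2 gave 51.95 and 51.51, 40.46 and 32.49, 13.26 and 14.07, and 8.819 and 6.598 in the same order (kidney minus lung −0.58, SE 0.15, adjusted p = 0.0122). Col4a5 and Col4a6 stayed at or below 2.092 and 0.86 CPM per 1000 GG in every library.

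**Figure D3:**
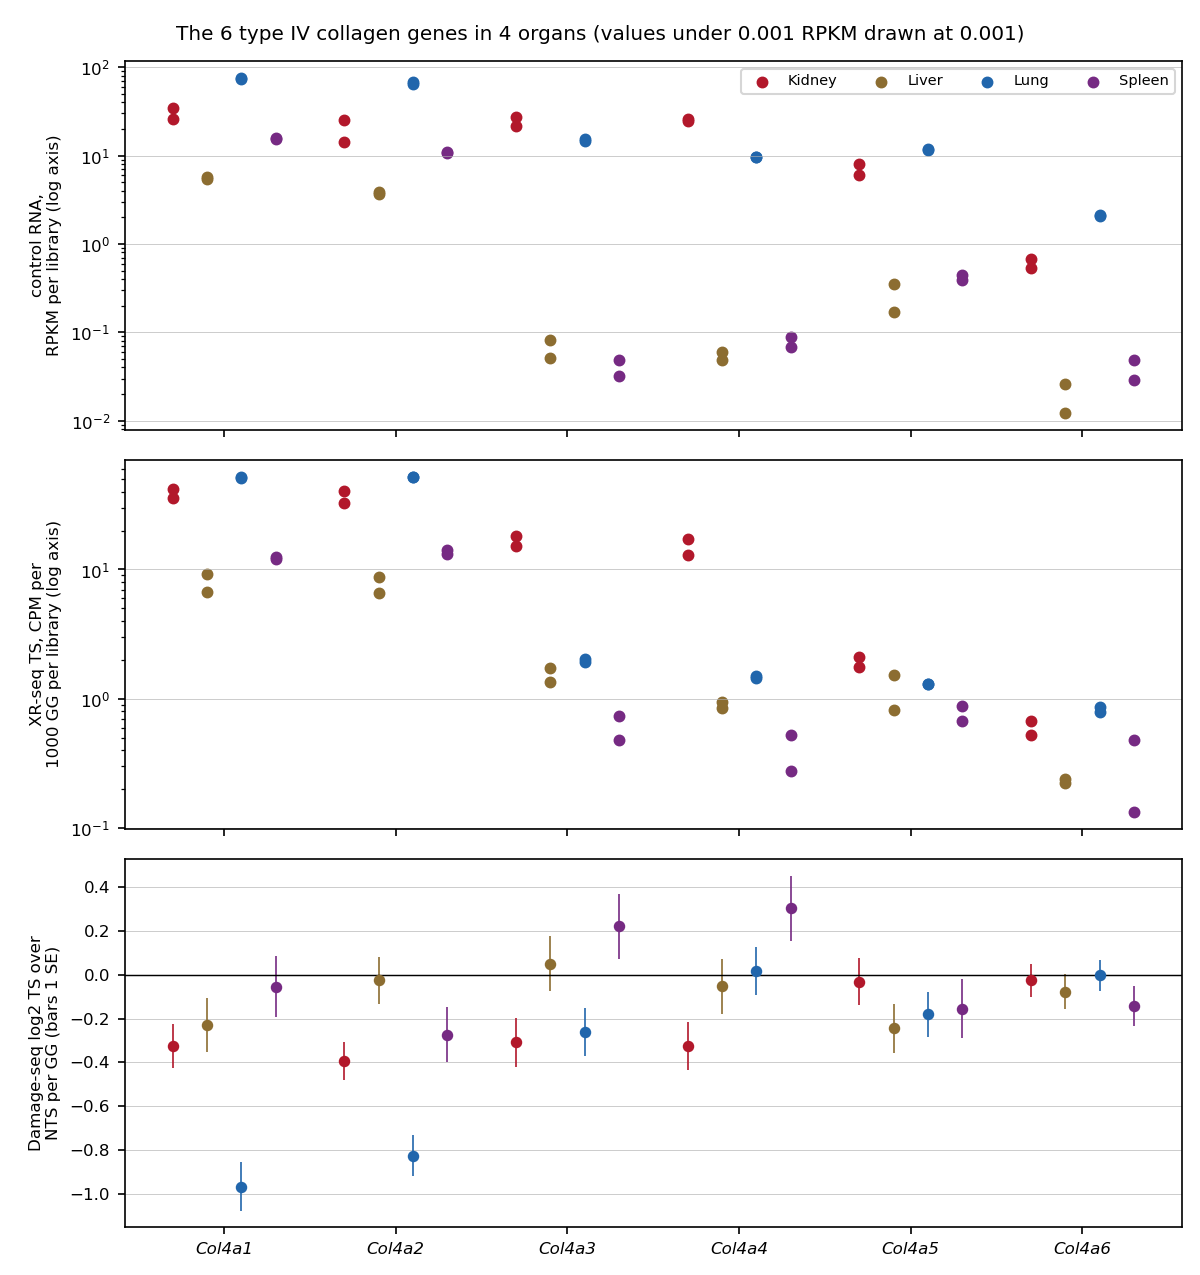
The 6 type IV collagen genes by organ, with control RNA in RPKM (log axis) at the top, the XR-seq TS level in CPM per 1000 GG (log axis) in the middle, each with a point per library, and the Damage-seq log2 ratio of TS over NTS with a bar of 1 SE at the bottom. Kidney stands apart in TS repair of Col4a3 and Col4a4, and lung in the Damage-seq ratio of Col4a1 (−0.97). The lung ratio of Col4a2 was −0.83, and this gene was not called lowest in lung against each other organ.

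Col1a1 and Col1a2 were repaired most in lung. Col1a1 TS repair was 16.99 and 14.53 CPM per 1000 GG in lung, 9.607 and 7.099 in spleen, 4.656 and 4.245 in kidney and 2.121 and 2.406 in liver, with a lung minus spleen difference of 0.89 on the log2 scale (SE 0.27, adjusted p = 0.0346, edgeR). Col1a2 gave 14.83 and 12.26 in lung and 4.848 and 4.559 in spleen (lung minus spleen 1.5 on the log2 scale, SE 0.29, adjusted p = 0.0021). The order of organ means was the same for repair and control RNA in both genes. Col3a1 had more RNA than Col1a1 in lung but a lower TS level there, at 5.251 and 6.881.

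The organ highest for RNA and for TS repair differed for Col18a1. Col18a1 RNA was highest in liver, yet its TS repair was 38.67 and 39.24 CPM per 1000 GG in kidney and 19.4 and 21.37 in liver, so kidney was higher by 0.56 on the log2 scale (SE 0.10, adjusted p = 0.000869, edgeR). Lung and spleen libraries of Col18a1 lay between 7.499 and 8.382. Annotated antisense genes overlap 8.46% of Col18a1, and 1 of them, Slc19a1, read 15.8 RPKM in kidney and 2.09 RPKM in liver in the cisplatin samples. Its part in the Col18a1 values was not tested. Col15a1 TS repair was 25.53 and 26.37 in liver, above lung by 3.10 on the log2 scale (SE 0.15, adjusted p = 1.02e-08), whereas its control RNA was close in liver (3.6 and 3.509 RPKM) and lung (2.932 and 2.99 RPKM). Col20a1 TS repair was 36.45 and 39.62 in liver and 20.64 and 21.82 in lung (liver minus lung 1.13, SE 0.14, adjusted p = 4.01e-05), at RNA levels of at most 0.75 RPKM in the cisplatin means of every organ.

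Levels of TS repair were low in collagen genes as a class. The median TS level over the 44 genes was 2.349 CPM per 1000 GG in the kidney, 1.192 in the liver, 4.063 in the lung and 2.601 in the spleen, against 16.37, 15.8, 15.3 and 14.91 over protein-coding genes. On the NTS the medians were 0.7634, 0.5909, 0.5308 and 0.3927 against 1.678, 1.469, 0.8828 and 0.9836. Some collagen genes had few or no reads. The 44 genes had a median of 128.5 to 877 TS reads and 19.5 to 167 NTS reads per library, and up to 5 genes had 0 NTS reads in a library (kidney replicate 1). Genes at 0 occurred only in replicate 1 of kidney, lung and spleen. Lung replicate 1, the deepest XR-seq library (59779770 reads), had 2 genes at 0 on the TS, and its next lowest gene had 22 reads. The reason for the zeros was not tested.

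Whether a collagen gene was repaired more on the TS than on the NTS was tested in each organ with both strands of a library paired. More reads per GG on the TS were called for 25 of 44 collagen genes in the kidney (52.5% of all genes), 18 in the liver (47.4%), 26 in the lung (55%) and 29 in the spleen (53.8%). The opposite was called for 5 (5.98%), 6 (6.93%), 3 (7.13%) and 4 (6.79%). These shares of collagen genes lie near those of all genes. The median TS to NTS ratio was 3.85, 2.43, 4.59 and 5.69 in collagen genes against 5.51, 3.57, 7.06 and 7.0 in all genes. With TS and NTS each scaled by TMM, which sets the typical gene to a ratio of 1, the counts of collagen genes above it were 6, 5, 10 and 9 and those below it 14, 14, 12 and 12. In all 4 organs 18 collagen genes were called with more on the TS, and 12 in none. The shares of all genes called so in all 4 organs, or in none, were not computed.

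**Figure D4:**
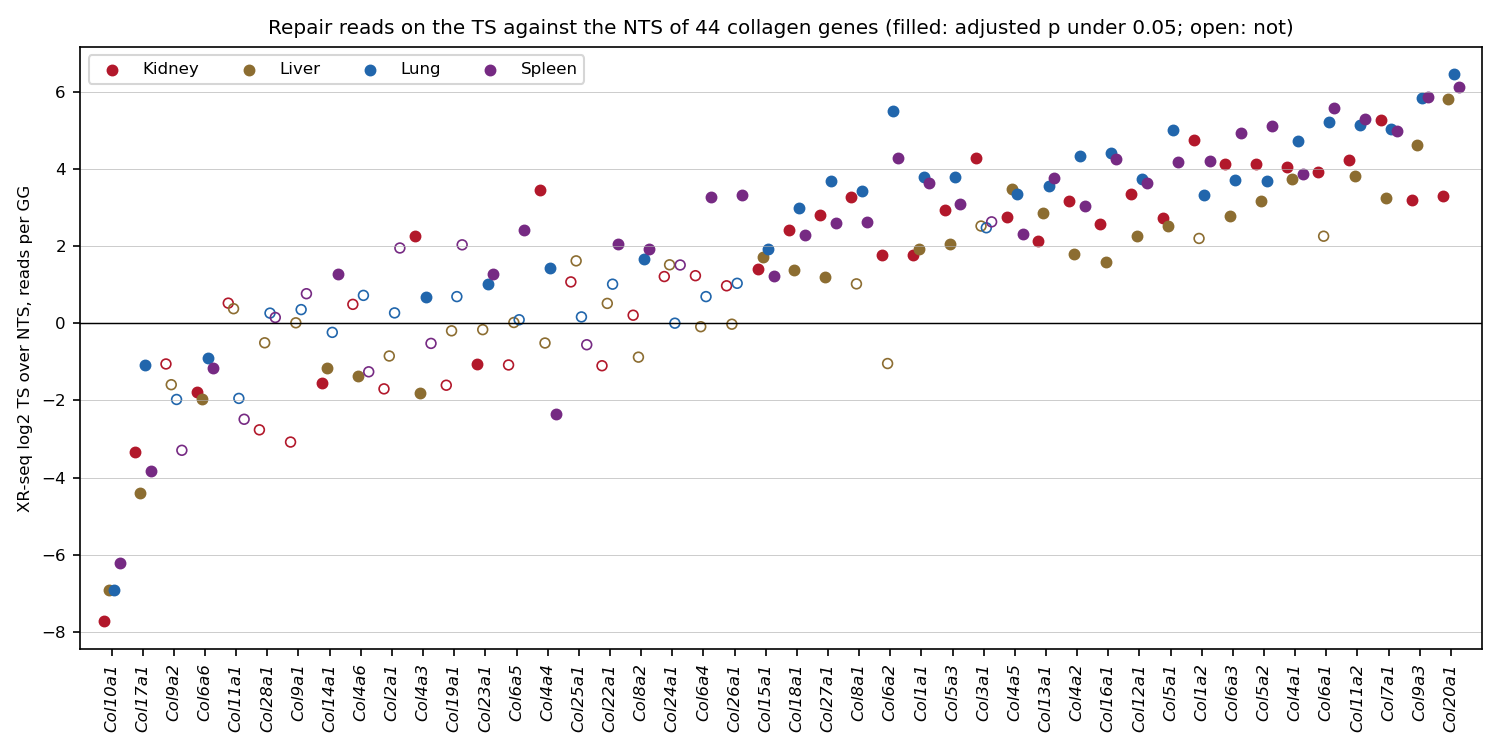
XR-seq log2 ratio of TS over NTS reads per GG for each of 44 collagen genes, ordered by their average, with a point for each organ that is filled where the adjusted p was under 0.05, and a line at 0 for equal repair of both strands. Col10a1, Col17a1 and Col6a6 lie below the line in all 4 organs, Col20a1, Col9a3, Col7a1 and Col11a2 lie far above it, and Col4a3 and Col4a4 cross it between organs.

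By class, the fibrillar genes were called with more on the TS for 8, 6, 7 and 7 of 11 genes in kidney, liver, lung and spleen, with median ratios of 7.04, 4.16, 12.8 and 8.43. Col1a1 had ratios of 3.39, 3.82, 13.9 and 12.4, all called. Col1a2 had 27.0, 4.58, 9.99 and 18.2, of which liver was not called (adjusted p = 0.102, edgeR), and Col3a1 had 19.3, 5.73, 5.55 and 6.17, with the call in kidney and not in the other organs, a difference between organs that was not itself significant. The type IV genes were called for 5, 3, 5 and 3 of 6, fibril-associated genes for 4, 4, 4 and 6 of 9, beaded filament genes for 3, 1, 3 and 5 of 6, and transmembrane genes for 1, 1, 2 and 2 of 4. Col4a1 had ratios of 16.5, 13.3, 26.2 and 14.5 and Col4a2 of 3.44 in liver, its lowest organ, and 8.16 in spleen.

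The 4 highest average ratios belonged to genes with little RNA of their own. Col20a1 had ratios of 9.89, 56.3, 87.2 and 69.5 in kidney, liver, lung and spleen, Col9a3 of 9.21, 24.7, 56.8 and 58.4, Col7a1 of 38.2, 9.46, 32.8 and 31.7, and Col11a2 of 18.7, 14.0, 34.9 and 38.8. Their mean RNA in the cisplatin samples was at most 1.34 RPKM in any organ. Each of them starts less than 5 kb downstream of the end of a protein-coding gene on the same strand. These neighbours were Rxrb 1.04 kb before Col11a2 (13.0 to 18.9 RPKM), Ogfr 1.95 kb before Col9a3 (24.1 to 46.0 RPKM), Uqcrc1 3.96 kb before Col7a1 (29.1 to 134 RPKM) and Arfgap1 4.01 kb before Col20a1 (5.46 to 9.08 RPKM). No other collagen gene had such a neighbour. The median of the average ratio was 27.0 in these 4 genes and 2.47 in the other 40, of which 14 were called with more on the TS in all organs. The 5 kb limit was chosen after the values were seen, and the part of the neighbours in these reads was not tested.

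The 3 genes called with more repair on the NTS in all 4 organs, Col10a1, Col17a1 and Col6a6, also had annotated neighbours. The share of all genes with that call in all 4 organs was not computed. Col10a1, the collagen of hypertrophic cartilage, lies wholly inside Nt5dc1 on the other strand. It had 1477 to 3282 NTS reads and 7 to 27 TS reads per organ, and ratios of 0.0047, 0.0083, 0.0083 and 0.0136. Nt5dc1 RNA stood at 9.15, 2.84, 5.3 and 8.79 RPKM and Col10a1 RNA at 0.0384, 0.00909, 0.352 and 0.0826 RPKM, so the strand counted as NTS for Col10a1 is the template of the more abundant RNA. Col17a1, a transmembrane collagen of epithelial attachment, had ratios of 0.0997, 0.0478, 0.469 and 0.0700, and Col6a6 had 0.290, 0.259, 0.536 and 0.452. Slk ends 1.1 kb beyond Col17a1 and Pik3r4 0.152 kb beyond Col6a6, each on the opposite strand. Col9a2, with Zmpste24 3.92 kb beyond it, had ratios of 0.481, 0.332, 0.254 and 0.102 that did not pass the test in any organ. An opposite-strand gene ended within 5 kb of 8 collagen genes, with a median average ratio of 1.05, against 5.97 for the other 36, and its part in these reads was not tested. Of these 8 genes, 2 were called with more on the NTS in all organs and 2 with more on the TS, Col20a1 (Chrna4 0.017 kb beyond it) and Col4a2. Col11a1, Col28a1, Col9a1 and Col14a1 had average ratios of 0.542 to 0.75 without an opposite-strand gene ending within 5 kb.

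The strand difference itself varied between organs for 13 of 44 collagen genes (F test of strand by organ, added after the data were seen, 21.8% of all genes). Col4a3 and Col4a4, which lie head to head on chromosome 1, were among them. Col4a3 ratios per library were 5.128 and 4.508 in kidney, 1.77 and 1.453 in lung, 0.6828 and 0.7085 in spleen and 0.2472 and 0.3317 in liver, and the TS was called higher in kidney and lung and the NTS in liver. The log2 ratio differed by 4.07 between kidney and liver (SE 0.32, adjusted p = 0.000518, edgeR). With TS and NTS each scaled by TMM, the Col4a3 log2 ratio was below 0 in kidney and lung too. Its NTS level was 5.426 and 5.218 CPM per 1000 GG in liver, higher than the 3.518 and 3.361 in kidney (kidney minus liver −0.86 on the log2 scale, SE 0.22, adjusted p = 0.0335). C430014B12Rik overlaps 22.3% of Col4a3 on the opposite strand, and its part was not tested. Col4a4 ratios were 12.62 and 9.45 in kidney, 2.641 and 2.787 in lung, 0.6078 and 0.8102 in liver and 0.2718 and 0.1444 in spleen, with a kidney minus spleen difference of 5.80 (SE 0.48, adjusted p = 0.000297), and Rhbdd1 ends 3.06 kb beyond it on the opposite strand. Without XR-seq kidney replicate 2 the count of collagen genes was 24, and without XR-seq liver replicate 2 it was 8. Over all genes these counts were 9416 and 2197, against 4712 with all libraries.

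Remaining damage on the TS was lower than on the NTS for few collagen genes. Fewer Damage-seq reads per GG on the TS were called for 5 of 44 collagen genes in the kidney (18.7% of all genes), 3 in the liver (29.5%), 6 in the lung (24.5%) and 0 in the spleen (11.8%), where 4 had an unadjusted p under 0.05. The share was below that of all genes in each organ. Spleen had the shallowest Damage-seq libraries, with 1571167 and 2211070 reads on genes. Median TS to NTS ratios were 0.985, 0.968, 0.945 and 1.01 in collagen genes and 0.874, 0.795, 0.843 and 0.855 in all genes. The genes called in kidney were Col18a1 (0.787), Col4a1 (0.798), Col4a2 (0.762), Col4a3 (0.807) and Col4a4 (0.798), of which 4 encode type IV chains. Those in lung were Col4a1 (0.511), Col4a2 (0.564), Col1a1 (0.676), Col5a2 (0.677), Col6a2 (0.647) and Col26a1 (0.859), and those in liver Col18a1 (0.672), Col13a1 (0.829) and Col26a1 (0.795). Without Damage-seq kidney replicate 1 the kidney count was 0, without lung replicate 2 the lung count was 3, and without liver replicate 1 or replicate 2 the liver count was 0 or 1. In liver Col10a1 had more reads on the TS (ratio 13.6, 0.868% of all genes called in this direction), from 16 TS reads and 1 NTS read.

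Col4a1 had the lowest damage ratio among the genes called. In lung its TS level was 4.91 and 5.192 CPM per 1000 GG and its NTS level 9.408 and 10.35, without overlap (log2 −0.97, SE 0.11). In kidney the levels were 9.156 and 9.203 on the TS and 12.8 and 10.24 on the NTS (log2 −0.33). Col4a2 in lung gave 5.836 and 5.492 against 9.609 and 10.45 (log2 −0.83, SE 0.10). The strand difference of damage varied between organs for 3 of 44 collagen genes (9.47% of all genes), Col4a1 (adjusted p = 2.79e-05, edgeR), Col4a2 (adjusted p = 5.09e-05) and Col5a2 (adjusted p = 0.0237). Col4a1 was lowest in lung, as were 0.148% of all genes, and its TS damage level was also lower in lung than in each other organ (0.172% of all genes). Col4a3 in kidney gave 7.643 and 6.604 on the TS and 10.41 and 7.324 on the NTS, and Col4a4 6.286 and 6.659 against 9.169 and 7.073, with values that overlap for Col4a3. For these 2 genes the variation of the strand difference between organs did not pass the test (adjusted p = 0.0817 and 0.0644). Without Damage-seq kidney replicate 2 the count of collagen genes whose strand difference varied was 6.

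Between organs, damage on collagen genes differed on the TS for 23 of 44 genes (31.9% of all genes) and on the NTS for 21 (18%). These levels are relative to the other genes of the same library, so a lower level does not mean fewer adducts in that organ. Kidney was the lowest organ on the TS for 10 collagen genes (4.16%) and on the NTS for 7 (3.26%), among them Col4a5, Col4a6, Col19a1, Col24a1, Col25a1 and Col28a1 on both strands. It was the highest on the NTS for 3, Col7a1, Col16a1 and Col18a1 (3.22%). Without Damage-seq kidney replicate 1 the NTS count of 21 became 4, and that over all genes went from 3648 to 1134. Median damage levels on the TS were above those of protein-coding genes in every organ and on the NTS above them in all but kidney. They were 8.983, 8.887, 8.625 and 8.988 against 7.738, 6.124, 6.909 and 6.856 CPM per 1000 GG on the TS and 8.691, 9.497, 9.291 and 9.078 against 9.465, 9.076, 8.898 and 8.584 on the NTS, in kidney, liver, lung and spleen.

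The kidney values were ordered by the GG density of the gene. Across the 44 genes GG per kb of the gene (mean of both strands) and the NTS damage level per GG had a Spearman correlation of 0.872 in the kidney, −0.281 in the liver, −0.00423 in the lung and 0.122 in the spleen. Across protein-coding genes the kidney correlation was 0.577. The log2 ratio of the kidney NTS level to the mean of the other organs correlated with GG density at 0.847 (0.879 without Col10a1), against 0.663 across 18340 protein-coding genes, and with gene length at −0.639. Genes of few GG per kb lay low in kidney, such as Col11a1 (37.3 GG per kb) at −0.48 and Col4a5 (44.1 GG per kb) at −0.66. Genes of many GG per kb lay high, such as Col16a1 (90.7 GG per kb) at 0.63, Col7a1 (95.8 GG per kb) at 0.70 and Col11a2 (102 GG per kb) at 0.80. Col10a1 stood apart at 2.63, from 28 NTS reads in kidney and 1 to 13 in each other organ. These points share the 2 kidney libraries and their base composition, and no cause was tested.

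**Figure D5:**
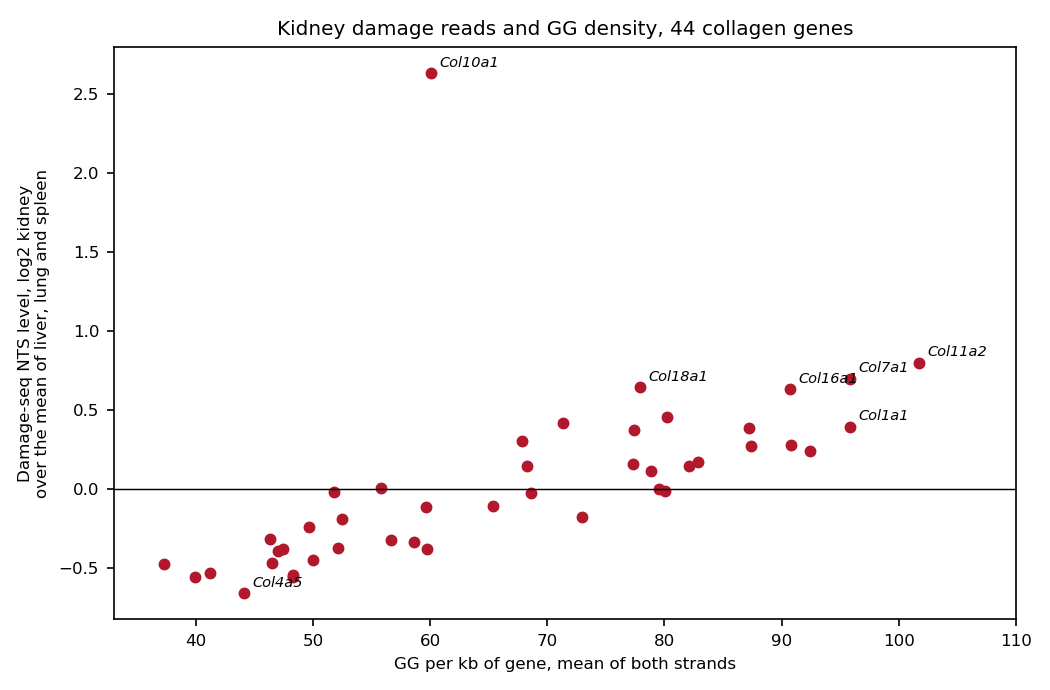
NTS damage level in kidney over the mean of the other organs (log2) against GG dinucleotides per kb of gene (mean of both strands), with a point for each of 44 collagen genes. Genes with few GG per kb such as Col4a5 (−0.66) lie below 0 and genes with many such as Col11a2 (0.80) above it, and Col10a1 stands apart at 2.63.

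The correlation of RNA with the damage ratio was below 0 in every organ and smallest in spleen. RNA level in the cisplatin samples and the Damage-seq TS to NTS ratio had Spearman correlations of −0.404 in the kidney, −0.329 in the liver, −0.454 in the lung and −0.0801 in the spleen across the 44 genes, and −0.576, −0.658, −0.496 and −0.454 across protein-coding genes. XR-seq TS level and the damage ratio gave −0.55, −0.441, −0.375 and −0.0657 across the 44 genes. Across protein-coding genes they gave −0.607, −0.583, −0.582 and −0.49. Spleen also had the fewest Damage-seq reads, and the part of depth in its values was not tested. Damage-seq counted a median of 85.5 to 319.5 TS reads and 85.5 to 354 NTS reads per collagen gene and library, and untreated samples of either assay were not analysed here.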

How the data were processed

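Damage-seq, XR-seq and RNA-seq libraries of 4 organs (32 samples) were analysed. The authors deposited read counts per gene, on the TS and NTS for Damage-seq and XR-seq and in total for RNA-seq, on mm10. The submitters' processing notes name cutadapt, BWA and Picard for the damage and repair reads and STAR, featureCounts and DESeq2 for RNA. Their versions are not given in the sources used here. The RNA-seq counting is not stated to use strand, so overlapping antisense genes cannot be told apart. Lines without a gene identifier (16 in all) were dropped.

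RNA counts of each organ were fitted with edgeR 4.0.16 (R 4.3.3; TMM, filterByExpr, glmTreat against log2 0.4, Benjamini-Hochberg over all genes, adjusted p under 0.05), and organs with quasi-likelihood F tests. An organ was highest or lowest for a gene when it differed from each other organ. RNA-seq pairs with a dispersion index of at most 3 were summed, so the spread in lung and spleen comes from the cisplatin pair alone and the lone control is assumed to vary like it. This rule was not applied to Damage-seq, whose pairs had indices of 1.43 (spleen TS) to 3.11 (kidney NTS) and were counted as 2 samples. The Damage-seq p-values may thus rest on a spread close to sampling noise. Strands were compared with the library as block and an offset of reads on genes times GG of the strand, for genes with at least 10 GG on each strand and 20 reads, in 1 fit over the 8 libraries of an assay. DESeq2 1.42.0 was an alternative, beside other scalings, filters, gene length limits and left-out libraries. The RNA response fits, the kidney strand comparison of each assay, and the organ fits of XR-seq TS and Damage-seq NTS were tried on simulated data. The interaction, the strand by organ test and the other organ fits were not. GG and exons were read from GRCm38 with GENCODE M21. Python 3.11.15, numpy 2.4.6, pandas 2.3.3, scipy 1.17.1 and matplotlib 3.10.9 were used. Counting intervals are not given because PCR reads are not independent molecules.

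The members and gene lists were chosen with earlier results of these data known. Values were given for Col1a1, Col1a2, Col3a1 and the type IV genes, the 3 highest collagen RNAs of each organ, genes past a threshold, the 3 highest and 3 lowest XR-seq ratios and the genes highest in 1 organ. Other genes named were chosen after their values were seen. Lists of markers of kidney, liver, lung, spleen, fibroblast, smooth muscle, endothelial, mesothelial, stellate, podocyte, lymphoid, adipocyte, muscle and cartilage cells were counted beside the collagen genes.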

Additional observations from a re-analysis of the deposited data

Results flagged for a closer look

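For 4 collagen genes the XR-seq reads were called higher on the TS in at least 1 organ and higher on the NTS in another, and the F test of strand by organ (edgeR, adjusted over all genes) passed for each. These were Col4a3 (adjusted p = 0.000372, TS in kidney and lung, NTS in liver), Col4a4 (adjusted p = 0.000409, TS in kidney and lung, NTS in spleen), Col23a1 (adjusted p = 0.0021, TS in lung and spleen, NTS in kidney) and Col14a1 (adjusted p = 0.0159, TS in spleen, NTS in kidney and liver). The share of all genes that meet this rule was not computed. With TS and NTS each scaled by TMM, every TS-side value of Col4a3, Col23a1 and Col14a1 was below 0. For Col4a4 the lung value was below 0 under that scaling. The change of strand in Col4a3, Col23a1 and Col14a1 thus depends on the scaling.

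Col23a1, a transmembrane collagen, had TS to NTS ratios of 0.5235 and 0.4463 in the kidney libraries, 0.8834 and 0.8998 in those of liver, 2.596 and 1.582 in those of lung and 2.102 and 2.811 in those of spleen. The kidney minus spleen difference of the log2 ratio was −2.33 (SE 0.30, adjusted p = 0.00202). Col14a1 gave TS levels of 0.3944 and 0.799 CPM per 1000 GG and NTS levels of 2.092 and 1.323 in kidney, and TS levels of 3.331 and 4.004 and NTS levels of 1.433 and 1.573 in spleen, with a kidney minus spleen difference of −2.82 (SE 0.54, adjusted p = 0.0117). The libraries of kidney and spleen did not overlap for either gene. Groups of 2 libraries are too small for a check of single outlying samples.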

How the results depend on the processing

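With 2 samples a group the RNA counts of 0 rest on few degrees of freedom, and no collagen gene count after cisplatin was stable in kidney. The kidney count was 4 with no filter on low counts, 1 with DESeq2, 3 with a test against 0 and 0 to 5 with a library left out. The liver count was 1 in 1 fit over all organs and 0 to 3 with a library left out. The lung count was 2 with no filter, 2 with a test against 0, 3 with each control library as a replicate and 0 to 0 with a library left out. The spleen count was 0 in each alternative. The interaction count was 1 with no filter, 2 with DESeq2 and 0 to 1 with a library left out (1 without liver cisplatin replicate 1).

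Same-numbered control and cisplatin samples deviated together with correlations of 0.456 in the kidney, 0.379 in the liver, 0.0615 in the lung and 0.329 in the spleen. With 2 pairs an organ the numbers are not known to pair the samples. With the replicate number as a block the counts were 6 in the kidney, 2 in the liver, 4 in the lung, 0 in the spleen and 5 for the interaction, and 41 for control RNA between organs. Calls over all genes rose too, to 3182 in kidney, 1015 in liver and 1914 in lung.

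Between organs, leaving out a library gave 24 to 35 for RNA (31 as reported), 31 to 37 for XR-seq TS, 9 to 20 for XR-seq NTS (20 without kidney replicate 2 and 18 without replicate 1), 18 to 23 for Damage-seq TS and 4 to 21 for Damage-seq NTS. DESeq2 gave 18 for XR-seq NTS and 9 for Damage-seq NTS. The counts of XR-seq genes higher on the TS were 6 in the kidney, 5 in the liver, 10 in the lung and 9 in the spleen with TS and NTS each scaled by TMM, 11, 8, 12 and 12 with genes under 100 kb alone, and 16 in kidney from its own 2 libraries. With a library left out they were 21 to 24, 12 to 22, 21 to 27 and 21 to 31. The strand by organ count was 8 to 24 for XR-seq and 2 to 6 for Damage-seq.

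Damage-seq counts lower on the TS were 0 in the kidney, 0 in the liver and 2 in the lung under TMM, where 16, 21 and 14 were called higher on the TS, 0, 0 and 2 with genes under 100 kb (1 in the spleen), and 0, 1 and 3 with DESeq2. They were 1 in kidney without members overlapped by 5% or more, 7 in liver per gene length in place of GG, 1 in spleen with at least 100 reads, and 0 to 5, 0 to 3, 3 to 6 and 0 to 1 in kidney, liver, lung and spleen with a library left out. Fewer genes entered the fit of genes below 100 kb, and the cause of these changes and of the others was not tested.

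Scaling TS and NTS each by TMM reversed 12 single values, which are then relative to the typical gene. For XR-seq these log2 ratios were −0.59 for Col1a1 and −0.083 for Col4a3 in the kidney, −0.10 for Col4a2 in the liver, −1.75 for Col23a1, −2.09 for Col4a3 and −1.33 for Col4a4 in the lung, and −1.48 for Col14a1, −1.48 for Col23a1 and −0.44 for Col4a5 in the spleen. For Damage-seq they were 0.10 for Col13a1 and 0.044 for Col26a1 in liver and 0.071 for Col26a1 in lung.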

Other observations

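The marker lists that the collagen comparison did not turn on had 2 further calls. In kidney Tnnt2 of the muscle list rose by 2.60 on the log2 scale (SE 0.49, adjusted p = 0.0450, edgeR) and Sox9 of the cartilage list, a transcription factor of cartilage, by 2.25 (SE 0.40, adjusted p = 0.0411). Endothelial markers summed to 423 to 424 RPKM in lung controls and 377 to 381 with cisplatin, and to 55.0 to 69.1 and 58.2 to 72.3 RPKM in kidney. Smooth muscle and pericyte markers summed to 143 to 149 RPKM in lung controls and 100 to 110 with cisplatin, and hepatic stellate markers to 10.5 to 12.7 and 7.25 to 12.2 RPKM in liver. Mesothelial markers summed to 216 to 223 RPKM in lung controls and 212 to 257 with cisplatin. Muscle markers summed to 43.5 to 45.1 RPKM in lung controls and 60.4 to 131 with cisplatin, and cartilage markers to 1.37 to 1.9 and 0.7 to 1.72 RPKM.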
